A study of Bos taurus with 9 samples.

Results

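*ACTA2*, which encodes smooth muscle alpha-actin, was examined in bovine blastocysts together with 9 further genes of the contractile actin cytoskeleton: *ACTG2*, *TAGLN*, *CNN1*, *MYL9*, *TPM1*, *TPM2*, *ACTB*, *ACTG1* and *TMSB10*. *ACTA2* was picked by its lower values in the knockout embryos of these same libraries, so its levels are described with no test, whereas the other 9 were added to see whether the contractile program followed. All 10 symbols were found among the 21512 genes of the expression table, and all 10 had a median above 0.1 TPM, the limit for testing, which 14599 genes passed. TPM is transcript abundance corrected for length and scaled so that each library sums to 1000000.

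The libraries came from single bovine blastocysts produced *in vitro* and collected on day 8 (D8), each holding both inner cell mass (ICM) and trophectoderm (TE) cells. The 5 wild-type (WT) embryos grew from oocytes injected with *Cas9* mRNA alone. The 4 *TEAD4* knockout (KO) embryos received *Cas9* mRNA and a guide RNA against exon 4 of *TEAD4*, the gene of a DNA-binding factor of the Hippo pathway, and carried only alleles with frame-disrupting indels. All were fertilized with semen of a single bull and cultured in synthetic oviduct fluid, and the comparison asks what the loss of TEAD4 does to blastocyst transcripts. The labels and the methods of the study name different RNA extraction kits, library kits and sequencers, so the protocol behind the libraries is not settled here. TPM values keep no record of the reads behind them, and the study gives sequencing depth as a range over samples, so the depth of each library is not used here. Libraries are called WT 1 to WT 5 and KO 1 to KO 4 after the columns of the table, and each is a separate embryo.

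Actin filaments are built from a family of nearly identical proteins, of which *ACTB* and *ACTG1* are made in almost every cell and *ACTA2*, *ACTG2*, *ACTC1* and *ACTA1* are typical of muscle. Filaments contract when myosin II, switched on by phosphorylation of its regulatory light chain, pulls on them, while tropomyosins, calponins and transgelins line the filament and thymosins hold actin monomers in reserve. In early embryos cortical actomyosin drives compaction and helps to position outer cells, and genes of the smooth muscle program are classic targets of SRF with its MRTF cofactors, many also carrying the MCAT elements that TEAD factors bind.

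The targeted gene was read first. *TEAD4* stood at 18.0, 52.5, 54.3, 36.5 and 43.4 TPM in WT 1 to WT 5 and at 42.8, 41.8, 12.5 and 22.2 TPM in KO 1 to KO 4. These levels overlapped, and the log2 fold change was −0.51 ± 0.42 (SE; limma adjusted p = 0.947). A small indel need not remove the transcript, so this level does not check the genotype labels.

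The level of *ACTA2* was 20.2, 149, 103, 117 and 55.8 TPM in WT 1 to WT 5. In KO 1 to KO 4 it was 10.3, 5.54, 5.38 and 1.69 TPM. All 4 KO embryos lay below all 5 WT embryos, which is the pattern the gene was chosen by, and the lowest WT embryo was 1.96 times the highest KO embryo. The WT mean was 88.9 ± 50.9 TPM (SD, n = 5) and the KO mean 5.73 ± 3.53 TPM (SD, n = 4). The difference in mean log2(TPM + 1), KO minus WT, was −3.63 ± 0.57 (SE), the lowest of the 14599 genes tested. Both groups were wide within themselves: the highest WT embryo was 7.37 times the lowest, and the highest KO embryo 6.09 times the lowest. Ranked by level among the 21512 genes, *ACTA2* stood between place 1142 and place 4666 in the WT libraries and between place 5259 and place 9969 in the KO libraries. In bulk samples, fewer cells of a type and less RNA per cell cannot be told apart.

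**Figure D1:**
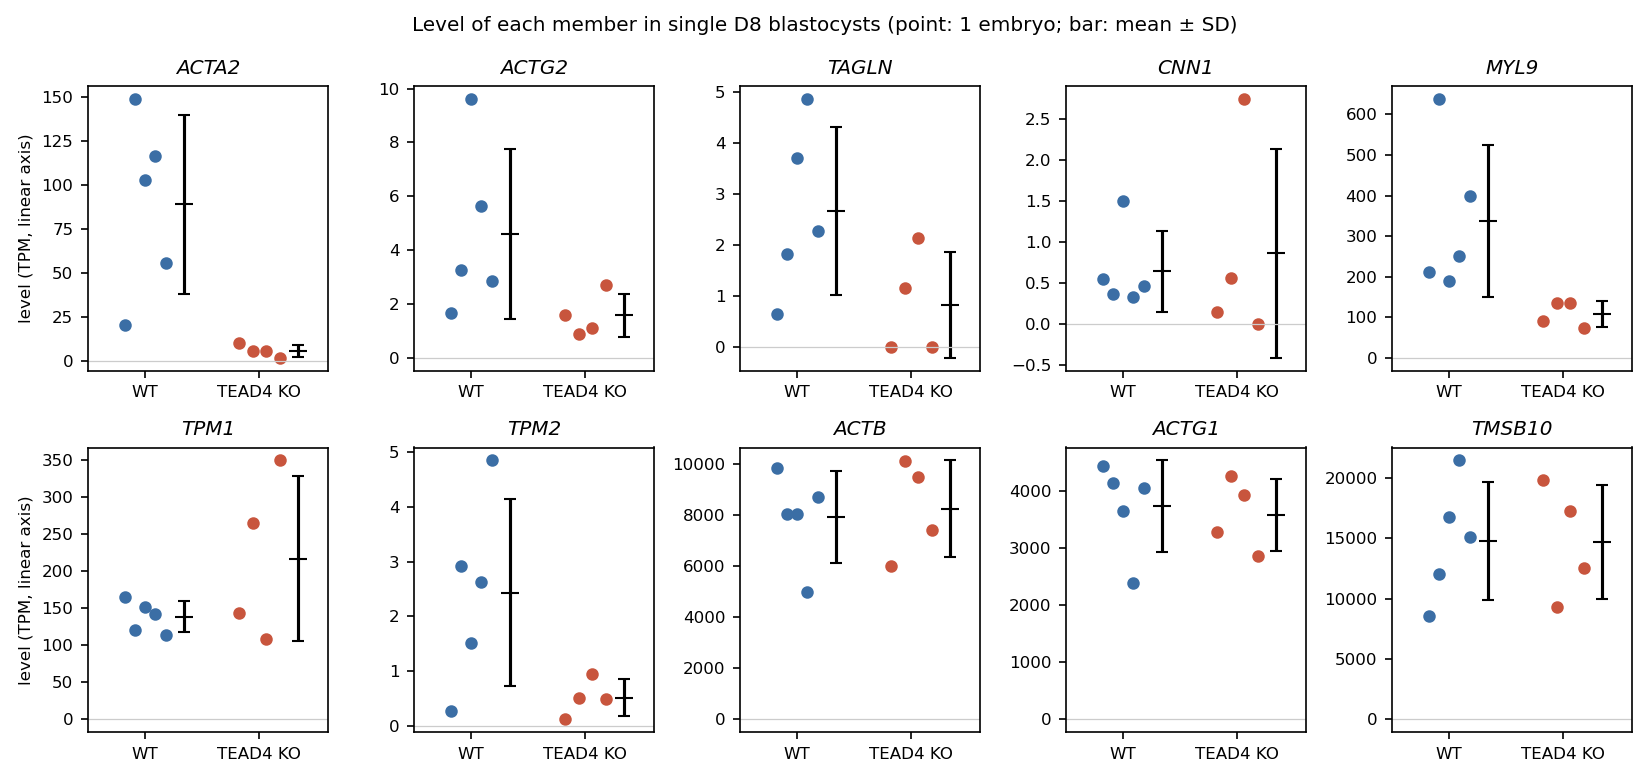
Level of each of the 10 genes in TPM (linear axes that include 0, a separate scale per gene), with 1 point per blastocyst in WT (blue) and *TEAD4* KO (red) and the mean ± SD as black bars. *ACTA2* and *MYL9* are the panels in which no KO point reaches the lowest WT point, while *ACTB*, *ACTG1* and *TMSB10* span about the same range in both groups.

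Among all genes tested, every KO library lay below every WT library for 1.23% (179 of 14599) and above for 0.801% (117 of 14599). Of the 9 members other than *ACTA2*, 1 lay below in this way, *MYL9*, and none lay above. The limma fit called 3 genes of the whole table (0.0205%) at an adjusted p under 0.05 and a log2 fold change beyond 1 in size. They were the histone genes *H2AC18* and *H2BC5* and a gene listed by its Ensembl identifier alone, and 0 of these 9 members was called. At an unadjusted p under 0.05, 3.83% of all genes were lower in KO and 2.07% higher, and 4 of the 9 members were lower (*ACTG2*, *TAGLN*, *MYL9* and *TPM2*) and 0 higher. The members were chosen with earlier results of these data known, so this count is not an independent check. The median log2 fold change of the 9 was −0.05, as was that of all genes tested (−0.05).

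*ACTG2* encodes the gamma-actin of enteric smooth muscle and is the closest relative of *ACTA2*. Its level was 1.65, 3.25, 9.61, 5.64 and 2.86 TPM in WT 1 to WT 5 and 1.59, 0.875, 1.13 and 2.71 TPM in KO 1 to KO 4. The groups overlapped through KO 4, which stood above WT 1, and the other 3 KO embryos were below every WT embryo. The log2 fold change was −1.001 (95% interval −1.90 to −0.11), with a limma adjusted p of 0.785 and an exact two-sided permutation p of 0.0317. The smallest p that 5 against 4 embryos can give in the exact test is 0.0159. Actin transcripts are much alike in their coding parts. The split of reads among *ACTA2*, *ACTG2*, *ACTC1*, *ACTA1*, *ACTB* and *ACTG1* may therefore be uncertain, which TPM values cannot show.

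The muscle-type actins were therefore also added up. *ACTA2*, *ACTC1*, *ACTG2* and *ACTA1* together reached 35.7, 204, 126, 146 and 79.4 TPM in WT 1 to WT 5 and 35.3, 25.3, 27.0 and 11.2 TPM in KO 1 to KO 4. The sum of WT 1 lay just above that of KO 1, and the remaining WT sums stood well clear of the KO sums. As the sum includes *ACTA2*, picked by its low KO values, this gap follows from the choice of gene. *ACTC1*, *ACTG2* and *ACTA1* each overlapped between the groups. *ACTA2* made up between 56.7% and 81.6% of that sum in WT embryos and between 15.2% and 29.2% in KO embryos. *ACTC1*, the cardiac alpha-actin, was the most abundant of the 4 in every KO library, at 22.8, 16.1, 17.5 and 5.84 TPM, against 11.7 to 52.0 TPM in WT. Its log2 fold change was −0.54 ± 0.47 (SE; limma adjusted p = 0.954). *ACTA1*, the skeletal alpha-actin, was at 2.94 TPM or less in all libraries, and its log2 fold change was 0.73 ± 0.37 (SE; limma adjusted p = 0.865).

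The cytoplasmic actins made up nearly all actin transcript. *ACTB* stood at 9861, 8061, 8062, 5007 and 8723 TPM in WT 1 to WT 5 and at 6015, 10124, 9496 and 7413 TPM in KO 1 to KO 4. *ACTG1* stood at 4426, 4130, 3636, 2392 and 4053 TPM in WT and at 3268, 4251, 3924 and 2848 TPM in KO. Both genes overlapped between the groups, with WT 4 the lowest library for each and KO 2 above every WT embryo for *ACTB*. The log2 fold change was 0.06 for *ACTB* (95% interval −0.49 to 0.61; limma adjusted p = 0.992; exact permutation p = 0.762) and −0.05 for *ACTG1* (95% interval −0.56 to 0.46; limma adjusted p = 0.994; exact permutation p = 0.810), the latter turning positive under median-of-ratios scaling and quantile normalization. Of the summed level of the 6 actins, *ACTA2* held between 0.141% and 1.54% in WT libraries and between 0.0165% and 0.111% in KO libraries. For WT embryos that sum had a mean of 11788.5 ± 2547 TPM (SD, n = 5), and for KO embryos a mean of 11859.6 ± 2446 TPM (SD, n = 4).

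*MYL9* encodes a regulatory light chain of myosin II that is abundant in smooth muscle. Its level was 212, 638, 190.0, 251 and 399 TPM in WT 1 to WT 5 and 91.1, 136, 135 and 72.8 TPM in KO 1 to KO 4. No KO embryo reached the lowest WT embryo: that WT value, in WT 3, was 1.40 times the highest KO value. The log2 fold change was −1.52 (95% interval −2.31 to −0.74), lower in 4 of 4 KO embryos than in any WT embryo, with the exact two-sided permutation p at its smallest possible value of 0.0159. Adjusted over the 14599 genes, the limma p was 0.396, short of the threshold, and by log2 fold change *MYL9* was in place 72 from the lowest. *MYL9* was the more abundant of the pair in every library, and the level of *ACTA2* was between 0.0955 and 0.542 of that of *MYL9* in WT and between 0.0233 and 0.113 in KO.

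The other regulatory light chains, *MYL12A* and *MYL12B*, encode proteins almost identical to that of *MYL9* and serve non-muscle myosin II. The split of reads among the 3 may therefore also be uncertain, which was not measured. *MYL12B* was looked at after its values were seen. *MYL12A* stood at 1525 to 1997 TPM in WT and 1592 to 1882 TPM in KO, and *MYL12B* at 313 to 469.9 TPM and 324 to 531 TPM. *MYL9* held between 8.02% and 23.3% of the summed level of the 3 in WT libraries, and between 3.19% and 5.89% in KO libraries. For WT embryos that sum had a mean of 2471 ± 209 TPM (SD, n = 5), and for KO embryos a mean of 2290.0 ± 61.5 TPM (SD, n = 4).

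**Figure D2:**
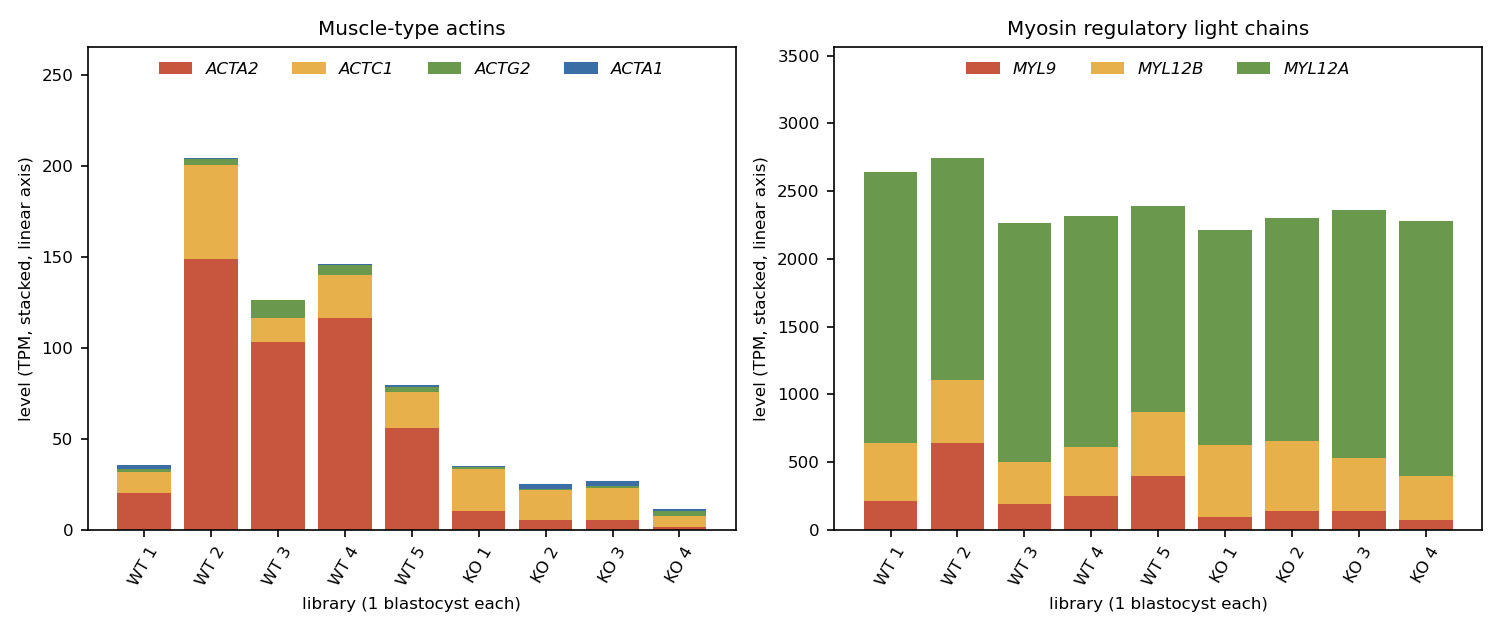
Stacked levels in TPM (linear axes from 0) of the 4 muscle-type actins (left) and the 3 myosin regulatory light chains (right), 1 bar per blastocyst. In the left panel *ACTA2* is the widest band in every WT bar and *ACTC1* in every KO bar; in the right panel the total stays between 2214 and 2742 TPM while the *MYL9* band is narrower in the KO bars.

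Tropomyosins are coiled-coil proteins that run along the actin filament and set its access to myosin. *TPM1* was at 165, 121, 152, 142 and 114 TPM in WT 1 to WT 5 and at 143, 265, 108 and 349 TPM in KO 1 to KO 4. KO 2 and KO 4 stood above every WT embryo and KO 3 below every one, so the KO group was wide on both sides. The log2 fold change was 0.50 (95% interval −0.20 to 1.20; limma adjusted p = 0.913; exact permutation p = 0.270). *TPM2*, the beta-tropomyosin of muscle, was at 0.284, 2.91, 1.51, 2.62 and 4.84 TPM in WT and at 0.122, 0.507, 0.943 and 0.499 TPM in KO. All 4 KO embryos lay below the WT embryos other than WT 1, which stood below 3 of the KO embryos. Its log2 fold change was −1.04 (95% interval −1.88 to −0.19; limma adjusted p = 0.743; exact permutation p = 0.0635). The 2 most abundant tropomyosins were *TPM3* and *TPM4*, at 1012 to 2264 TPM and 715 to 1320 TPM over the 9 libraries, with log2 fold changes of 0.15 and −0.17 (limma adjusted p = 0.982 for both).

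*TAGLN* (transgelin, an early marker of smooth muscle) and *CNN1* (basic calponin, a late one) bind along actin filaments. *TAGLN* was at 0.648, 1.82, 3.70, 4.86 and 2.27 TPM in WT 1 to WT 5 and at 1.16 and 2.14 TPM in KO 2 and KO 3, and was listed at 0 in KO 1 and KO 4. The groups overlapped, since WT 1 stood below both of the KO embryos with a value. The log2 fold change was −1.05 (95% interval −2.01 to −0.10; limma adjusted p = 0.797; exact permutation p = 0.0952). *CNN1* was at 0.322 to 1.50 TPM in WT, at 0.141, 0.557 and 2.74 TPM in KO 1 to KO 3 and listed at 0 in KO 4. The highest and the lowest *CNN1* level were thus both in KO embryos, and the log2 fold change was 0.01 (95% interval −0.76 to 0.79; limma adjusted p = 0.998; exact permutation p = 0.984). For genes this low, a fold change on the log2(TPM + 1) scale understates the change in TPM.

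*TMSB10* encodes thymosin beta-10, which binds actin monomers. It was among the 4 most abundant transcripts of every library, at 8558, 12013, 16786, 21437 and 15074 TPM in WT 1 to WT 5 and at 19828, 9304, 17224 and 12524 TPM in KO 1 to KO 4. The groups overlapped fully, with a log2 fold change of 0.00 (95% interval −0.68 to 0.68; limma adjusted p = 0.999; exact permutation p = 0.968).

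The members thus differed in how far WT 1 stood with the other WT embryos. WT 1 was the lowest WT library for *ACTA2*, *ACTG2*, *TAGLN*, *TPM2* and *TMSB10*, and the highest for *TPM1*, *ACTB* and *ACTG1*. Leaving *ACTA2* aside, 3 of the 9 members (*ACTG2*, *MYL9* and *TPM2*) were lower in every KO library than in every WT library without WT 1, in place of 1, while the share of all genes with that pattern was 2.20% in place of 1.23%. Without KO 4 they were 2 (*ACTG2* and *MYL9*), beside 2.28% of all genes, and with any of the other 7 embryos left out *MYL9* was the only one.

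Beyond the members, 9 lists of actin cytoskeleton genes held 159 symbols, of which 147 were tested. None of the 137 tested genes that are not members was called by the limma fit, and at an unadjusted p under 0.05 there were 3 lower (*EPS8* and, chosen after their values were seen, *CNN2* and *ROCK2*) and 0 higher in KO, where 3.83% of all genes were lower and 2.07% higher. Every KO library lay below every WT library for 1 of the 137, *EPS8*, and above for 0, beside 1.23% and 0.801% of all genes. Single embryos moved this count. Without WT 1 it was 5 of 138 (3.62%), against 2.20% of all genes. These were *EPS8* and, chosen after their values were seen, *PFN1*, *TMOD1*, *LIMK1* and *MRTFA*. Without KO 3 it was 7 of 139 (5.04%), against 3.26%. The share was below that of all genes without KO 2 (3 of 136, 2.21%, against 4.12%) and without KO 4 (2 of 139, 1.44%, against 2.28%). It was also below without WT 2, WT 3, WT 4 or KO 1, and near it without WT 5 (1.46%, against 1.34%). Without *ACTA2*, picked by its low KO values, 101 of 146 genes of the lists had a lower mean in KO (69.2%). Over the 147, 102 had a lower mean in KO (69.4%, against 55.8% of all genes tested). Their median log2 fold change was −0.16, against −0.05 for all genes. With median-of-ratios scaling these medians were −0.11 and −0.0074, and with quantile normalization −0.09 and 0.02. Without KO 1 they were −0.033 (85 of 147 lower) and 0.038 (45.7% of all genes lower), and without KO 2 −0.25 (106 of 146 lower) and −0.12 (63.5% of all genes lower).

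By list, the median log2 fold change was −0.29 for the 6 actin isoforms with *ACTA2*, the gene picked by its low KO values, and −0.05 for the 5 without it, the same as for all genes (−0.05). It was −0.01 for the 4 tropomyosins (0.05 with median-of-ratios scaling), and −0.21 for the 5 calponins and transgelins. It was −0.16 for 10 other smooth muscle contractile genes, −0.14 for 19 genes of non-muscle myosin II and its regulators, and −0.18 for 27 genes of monomer binding and filament turnover. It was −0.13 for 28 genes of the Arp2/3 complex, formins and nucleation, and −0.15 for 30 cross-linkers and linkers of cortex and adhesion. With quantile normalization the median of all genes was 0.02. The list medians were then −0.22 for calponins and transgelins, −0.053 for smooth muscle genes and −0.071 for myosin II. They were −0.089 for monomer binding and turnover, −0.095 for Arp2/3 and formins and −0.075 for cross-linkers and linkers. With median-of-ratios scaling the median of all genes was −0.0074. The same lists, in that order, were then at −0.15, −0.13, −0.13, −0.13, −0.067 and −0.12.

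**Figure D3:**
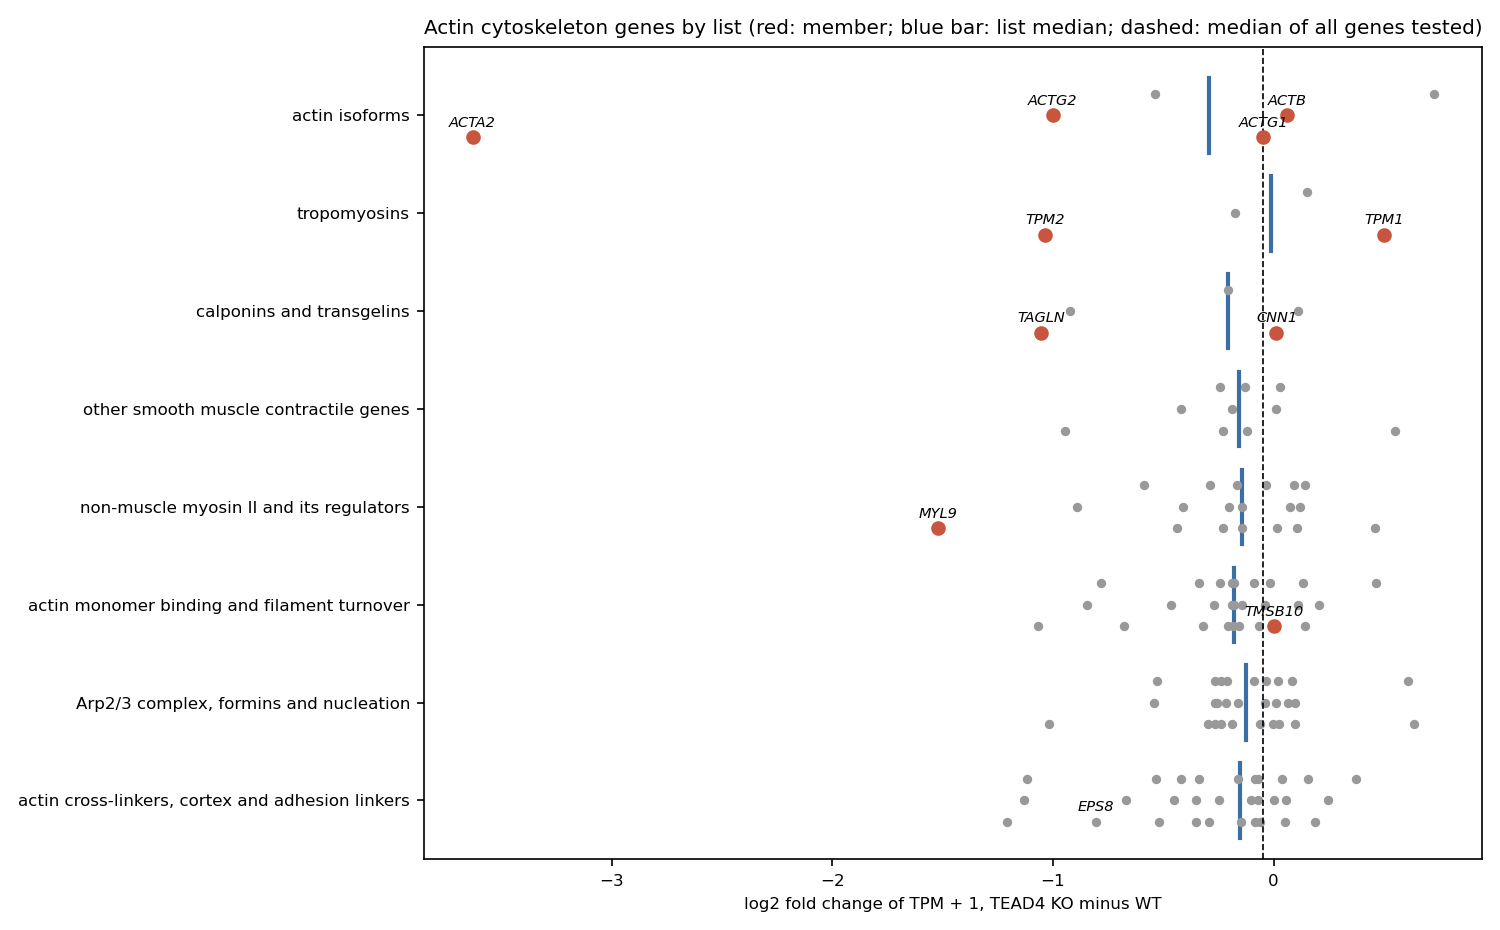
Log2 fold change of TPM + 1 (KO minus WT) of each tested gene in 8 lists, with members in red, list medians as blue bars and the median of all 14599 tested genes as a dashed line. *ACTA2* at −3.63 lies apart to the left. *MYL9* at −1.52 is the next lowest, followed by a gene that is not a member at −1.21. The median of the actin isoforms, drawn at −0.29, is −0.05 without *ACTA2*.

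*EPS8*, which caps and bundles actin filaments, was low throughout, at 1.19, 2.24, 2.80, 2.43 and 1.66 TPM in WT 1 to WT 5 and at 0.395, 0.427, 1.11 and 1.09 TPM in KO 1 to KO 4. The gap between WT 1 and KO 3 was narrow and closed under both other scalings, and the log2 fold change was −0.81 ± 0.26 (SE; limma adjusted p = 0.624). The most abundant transgelin and calponin were *TAGLN2* and *CNN3*, at 621 to 2704 TPM and 46.6 to 297 TPM over the 9 libraries, with log2 fold changes of 0.11 and −0.21. Among other smooth muscle genes, the LIM proteins *CSRP2* and *FHL2* were the most abundant, at 491 to 2641 TPM and 33.1 to 210 TPM, with log2 fold changes of −0.24 and −0.42. The myosin essential light chain *MYL6* reached 5358 to 7704 TPM in WT and 3202 to 9008 TPM in KO, and its log2 fold change was −0.41 ± 0.29 (SE; limma adjusted p = 0.929).

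The most abundant genes of filament dynamics and of the cross-linkers overlapped between the groups, as did nearly all genes tested. Only 1.23% of all genes lay wholly below in KO and 0.801% wholly above. The mean was lower in KO for 21 of 27 genes of monomer binding and turnover and 19 of 28 of Arp2/3 and formins. It was lower for 22 of 30 cross-linkers and linkers, beside 55.8% of all genes. *TMSB4X*, the thymosin next to *TMSB10* in abundance, ranged from 2049.5 to 14022 TPM in WT and from 3355 to 11739 TPM in KO. The Arp2/3 subunits *ARPC2* and *ACTR3*, which start filament branches, had log2 fold changes of 0.06 and −0.30. *EZR* (ezrin, which ties actin to the apical membrane) and *PLS1* (a bundling plastin) had log2 fold changes of 0.37 ± 0.44 and −1.13 ± 0.55 (SE; limma adjusted p = 0.975 and 0.847). *SRF* itself, looked at after its values were seen, was at 7.10 to 12.2 TPM in WT and 5.18 to 11.4 TPM in KO.

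Markers of outer and of inner cells were both present. The TE keratins *KRT8* and *KRT18* were at 2721 to 11972 TPM and 1108 to 5631 TPM over the 9 libraries. *SOX2*, which the study stained as its ICM marker, was at 2.26 to 90.4 TPM. *POU5F1* was at 773 to 2142 TPM. The paper states that POU5F1 and CDX2 do not exclude each other in bovine embryos as in mice, so *POU5F1* need not mark inner cells alone. The summed level of the 10 TE markers was 18184, 14351, 7790, 4203 and 14357 TPM in WT 1 to WT 5 and 9464, 12473, 7067 and 6629 TPM in KO 1 to KO 4. That of 5 epiblast markers was 799, 993, 1584, 2103 and 1227 TPM in WT and 1553, 2205, 1405 and 2005 TPM in KO. Both sums overlapped between the groups and rest mainly on the keratins and *POU5F1*. The log2 fold changes of the epiblast markers were 0.57 (*POU5F1*), 0.20 (*KLF4*), −0.13 (*LIN28B*), −0.68 (*SOX2*) and −1.43 (*NANOG*). A lower mean in KO was found for 7 of the 10 TE markers (6 of 9 without *TEAD4*, the targeted gene) and 3 of the 5 epiblast markers, beside 55.8% of all genes. The widest difference among them was in the trophoblast glycoprotein *PAG2*, at 84.1 to 296 TPM in WT and 3.60 to 95.0 TPM in KO (log2 fold change −2.57 ± 0.77 SE; limma adjusted p = 0.618).

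WT 1, the WT embryo with the least *ACTA2*, also had the lowest epiblast sum and the highest TE sum. In it *NANOG* was at 0.127 TPM and *HNF4A* was listed at 0, against 29.3 to 262 TPM and 4.74 to 13.8 TPM in the other WT embryos. KO 4, the embryo with the least *ACTA2* of all, did not share this pattern of sums. Its epiblast sum was 2005 TPM and its TE sum 6629 TPM. The summed level of 8 hypoblast markers, led by *GATA6*, was 87.3, 107, 159.9, 127 and 162 TPM in WT 1 to WT 5 and 52.8, 166, 63.7 and 98.9 TPM in KO 1 to KO 4. Of the 7 hypoblast markers tested, 6 had a lower mean in KO (55.8% of all genes did), and 1, *GATA4*, lay wholly below WT in KO (1.23% of all genes did), at 1.09 to 1.75 TPM in WT and 0.367 to 0.957 TPM in KO. The part of these markers in the *ACTA2* values was not tested.

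Muscle and follicle markers were read in the same way. Of 9 markers that define smooth muscle, 6 were tested, 3 with a lower and 3 with a higher mean in KO, and *MYH11*, *LMOD1*, *MYOCD* and *KCNMB1* were under 1 TPM in every library. Their summed level, led by *SMTN*, was 15.6, 12.8, 28.5, 24.2 and 17.8 TPM in WT 1 to WT 5 and 7.55, 6.51, 36.8 and 5.35 TPM in KO 1 to KO 4. *SMTN* was at 8.81, 8.10, 15.2, 13.6 and 13.1 TPM in WT 1 to WT 5 and at 4.63, 3.69, 23.4 and 1.72 TPM in KO 1 to KO 4, so that 3 KO embryos lay below every WT embryo and KO 3 above every one (log2 fold change −0.94 ± 0.54 SE; limma adjusted p = 0.895). *DES* was at 0.424 to 3.37 TPM in WT and 0.154 to 8.70 TPM in KO. The part of smooth muscle-like cells in the *ACTA2* values was not tested.

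Of 14 striated muscle markers, 8 were tested, 2 with a lower and 6 with a higher mean in KO (55.8% of all genes had a lower one), and the sum was 23.6, 59.3, 31.0, 35.8 and 28.3 TPM in WT and 42.6, 37.4, 43.4 and 46.4 TPM in KO, with *ACTC1* the most abundant on average. Every KO library lay above every WT library for 2 of them, beside 0.801% of all genes: *MYH7* (0.154 to 0.378 TPM in WT, 0.432 to 2.24 TPM in KO) and the muscle ubiquitin ligase *TRIM63* (1.59 to 5.69 TPM in WT, 5.91 to 31.7 TPM in KO). Neither passed the adjustment (log2 fold change 0.67 and 1.72; limma adjusted p = 0.671 and 0.558).

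Of 10 cumulus and granulosa markers, 6 were tested, 4 with a lower and 2 with a higher mean in KO. Their sum was 263, 119, 70.9, 133 and 162 TPM in WT and 51.1, 33.9, 124 and 7.54 TPM in KO. This sum rests mainly on *CYP11A1*, the first enzyme of steroid synthesis and the most abundant on average. *CYP11A1* ranged from 52.7 to 247 TPM in WT and from 4.57 to 96.7 TPM in KO. The log2 fold change of *CYP11A1* was −2.61 ± 0.73 (SE; limma adjusted p = 0.566), and *INHA*, *INHBA*, *HAS2* and *PTX3* were under 1 TPM in every library. Of 8 fibroblast and stromal markers, 5 were tested, 2 with a lower and 3 with a higher mean in KO, with *COL3A1* and *POSTN* listed at 0 in all 9 libraries. Their sum, led by *COL1A2*, was 31.9, 9.72, 11.9, 9.12 and 13.6 TPM in WT and 6.69, 18.7, 15.8 and 16.0 TPM in KO. By the study's methods, cumulus cells were stripped from the oocytes with hyaluronidase and vortexing before injection. The part of follicle and stromal cells in the *ACTA2* values was not tested.

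**Figure D4:**
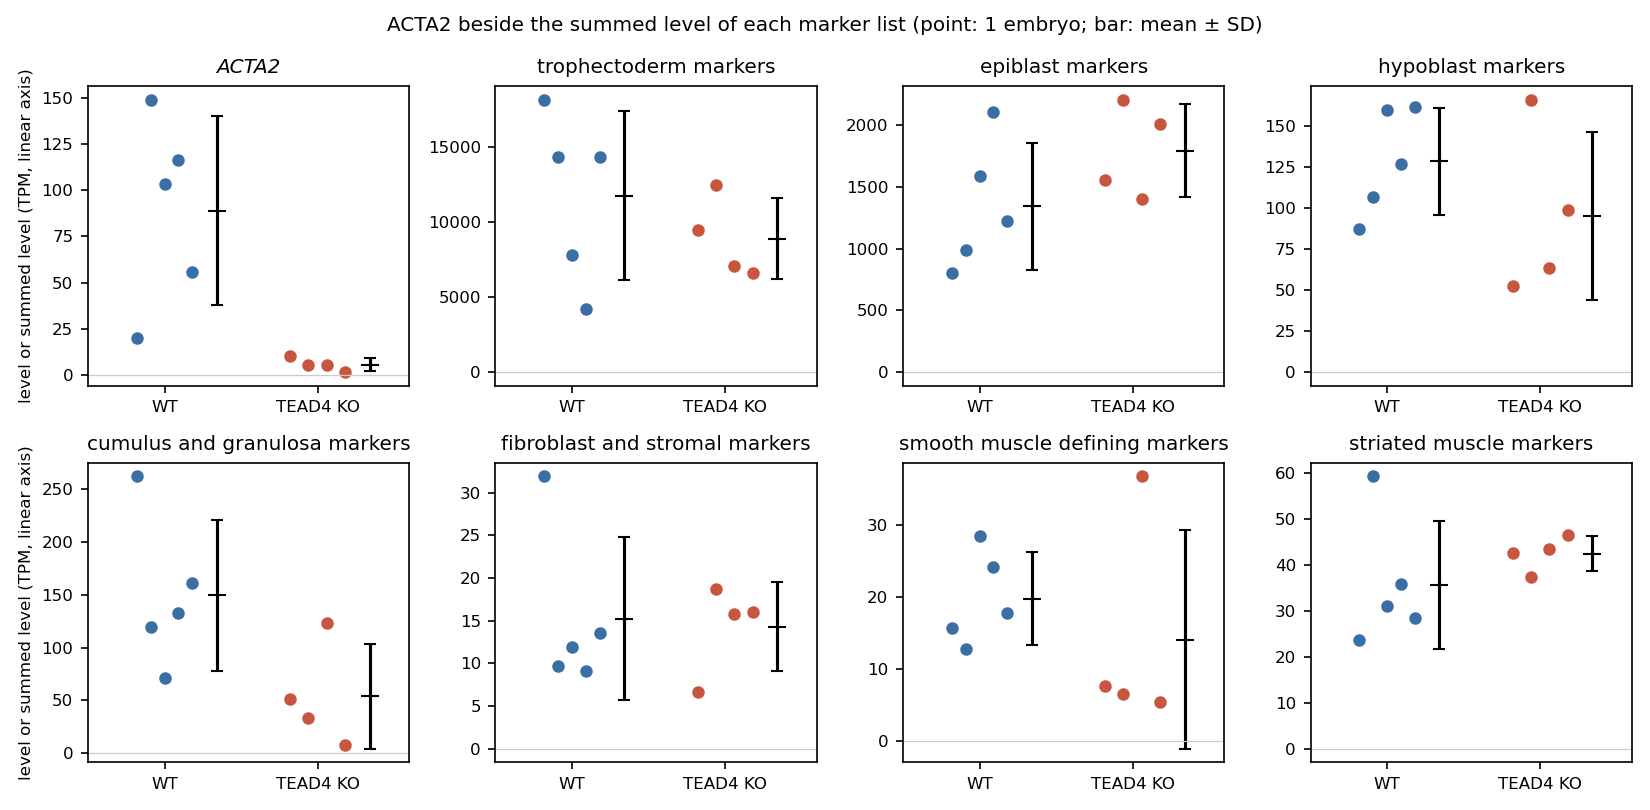
Level of *ACTA2* and summed level of each marker list in TPM (linear axes that include 0), with 1 point per blastocyst in WT (blue) and *TEAD4* KO (red) and the mean ± SD as black bars. *ACTA2*, which was picked by its low KO values, is the only panel without overlap between the groups. The cumulus and granulosa sum, which rests mainly on *CYP11A1*, overlaps through KO 3.

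The genes whose levels most resembled those of *ACTA2* were ranked by Pearson's r of log2(TPM + 1) over the 9 libraries, among 11218 genes with a median above 1 TPM. They were *THAP8* (r = 0.931), *IRF2BP1* (r = 0.912), *CCL22* (r = 0.912), *SMAD4* (r = 0.891) and *SSX2IP* (r = 0.882). As the libraries fall into 2 genotypes that differ in *ACTA2*, any gene that separates them ranks high here, and r is given as a description. *IRF2BP1*, a transcriptional corepressor, was at 4.38 to 6.12 TPM in WT and 0.874 to 1.71 TPM in KO, and the chemokine *CCL22* at 4.37 to 7.90 TPM and 0 to 1.59 TPM. *SMAD4*, the common mediator of TGF-beta and BMP signals, was at 27.4 to 36.7 TPM in WT and 17.7 to 22.1 TPM in KO. These 3 did not overlap between the groups, whereas *THAP8* and *SSX2IP* did, both through WT 1. *MYL9* was the member most like *ACTA2*, in place 24 of the 11218.

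The protein-coding neighbours of *ACTA2* in the RefSeq gene order are *STAMBPL1*, a deubiquitinase gene, and *FAS*, which encodes a death receptor. *STAMBPL1* was under 1 TPM in every library, with a log2 fold change of −0.15 ± 0.24 (SE; limma adjusted p = 0.982). *FAS* was at 5.73, 0.741, 6.52, 2.60 and 0.863 TPM in WT 1 to WT 5 and at 0.973, 0.938, 9.75 and 8.14 TPM in KO 1 to KO 4. KO 3 and KO 4 stood above every WT embryo, and the groups overlapped (log2 fold change 0.30 ± 0.65 SE; limma adjusted p = 0.983). Neither neighbour thus showed the separation between genotypes by which *ACTA2* was picked.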

How the data were processed

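Gene levels were taken as deposited by the authors, in TPM, 1 column per blastocyst, each summing to 1000000. The submitters' processing notes name FastQC, fastp and kallisto, without versions. The genome build and the annotation are not given in the sources used here. DESeq2, which the authors ran on counts, does not suit TPM, so log2(TPM + 1) was fitted with limma 3.58.1 (R 4.3.3), with a mean-variance trend, over the 14599 genes with a median above 0.1 TPM, 5 WT against 4 KO embryos, and p-values were adjusted over all of them by Benjamini-Hochberg. Members other than *ACTA2* also got an exact two-sided permutation test. The fit was tested on simulated data. Members and gene lists were chosen with earlier results of these data known. Named genes were all members and, per pathway list, those called, those without overlap and the 2 most abundant, with the 5 genes most like *ACTA2*. Single markers of cell types were named after their values were seen. Gene order was read from RefSeq on ARS-UCD2.0, which may not be the build behind the table, in which all 10 members were found, and no coordinates were used. Alternatives were other pseudocounts, filters, scalings, a fit without trend and each embryo left out. The result of 1 of the 9 gene lists is not reported here.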

Additional observations from a re-analysis of the deposited data

Results flagged for a closer look

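The level of *CNN1* in WT 3, 1.50 TPM, stood apart from the other 4 WT embryos, the nearest of which was at 0.544 TPM. It was the 1 value so far from its group among the 20 sets of embryos examined (10 genes in 2 genotypes), and chance alone gives about 1 in 20.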

How the results depend on the processing

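The direction of *ACTA2* follows from how it was picked; over the 15 alternatives its log2 fold change ranged from −4.08 (without WT 1) to −3.25 (without KO 4). That of *MYL9* ranged from −1.69 (without WT 3) to −1.26 (without WT 2), at limma adjusted p from 0.270 to 0.771. *ACTG2*, *TAGLN*, *TPM1* and *TPM2* kept their direction wherever tested, but not always their size: with a pseudocount of 0.1 TPM *TAGLN* went from −1.05 to −2.49 and *TPM2* from −1.04 to −1.82, and *TPM1* went from 0.50 to 0.22 without KO 4 and 0.78 without KO 3. With that pseudocount *EPS8* went from −0.81 to −1.41 and *MYH7* from 0.67 to 1.54, and *MYH7* was at 0.45 without KO 2. None of the 9 members other than *ACTA2* was called under any alternative, where only 0 to 10 genes of the whole table were. With so few calls, this does not show that these members were unchanged. Under the median filter of 1 TPM, *CNN1* and *TPM2* were not tested. Of the 9 members other than *ACTA2*, 5 had a lower mean in KO (55.6%), beside 55.8% of all genes tested. With *ACTA2*, whose direction follows from how it was picked, the count was 6 of 10. Under the alternatives that count was between 5 and 9, with 5 of 8 tested under the median filter of 1 TPM. The share of all genes lower in KO was then between 45.7% and 63.5%.

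The 3 genes called over the whole table became 8 with a pseudocount of 0.1 TPM, 8 with a median above 1 TPM, 5 with median-of-ratios scaling, 6 with quantile normalization, 5 without the trend, and 0 to 10 with 1 embryo left out (10 without KO 3). The 296 genes without overlap became 344 to 830 with 1 embryo left out, as fewer embryos overlap less. Differences near 0 changed sign: *CNN1* to −0.49 with a pseudocount of 0.1 TPM, and over embryos left out from −0.39 to 0.24; *ACTB* from −0.096 to 0.20 over embryos left out, and from 0.06 to 0.12 with median-of-ratios scaling and 0.31 with quantile normalization; *ACTG1* to 0.012 with median-of-ratios scaling, 0.0030 with quantile normalization, and from −0.20 to 0.057; and *TMSB10* from −0.18 to 0.20. The cause was not tested. TPM do not keep the reads behind each value, so no counting error is given for levels under a few TPM.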
